A study of Mus musculus with 27 samples.

Results

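Transcripts of 9 genes that set and keep the identity of skeletal muscle were followed in single mouse myofibers: the myogenic regulatory factors Myod1, Myog, Myf5 and Myf6, the MEF2 factors Mef2a, Mef2c and Mef2d, and their regulators Eya1 and Pax7. They were chosen by name, as the microarray spots other than controls that carry one of these gene symbols. This gave 11 probes of 60 bases in 38 spots, among 55681 probes on the array. Of these, 10 probes of 8 genes had values on enough arrays to be tested, among 22169 probes of 16648 genes. Pax7 was the member that was not tested. Myf5 is counted among the 10 probes tested, although, as given below, it was not measured well enough to compare.

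The myogenic regulatory factors are basic helix-loop-helix proteins that pair with E proteins on E-boxes and switch on muscle genes. Myod1 and Myf5 commit cells to the muscle lineage, Myog drives their differentiation, and Myf6 (MRF4) is the member that mature fibers are known for. The MEF2 factors are MADS-box proteins that bind an A/T-rich element beside many E-boxes, are held back by class IIa histone deacetylases, and are released by calcium signalling through calcineurin and CaM kinases. Pax7 marks satellite cells, the stem cells that lie against the fiber, and Eya1 is a transcriptional coactivator that acts upstream of the myogenic factors.

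Each of the 27 arrays held the amplified RNA of 1 fiber from the tibialis anterior of a male mouse. The WT group held 8 fibers of 2 control mice. The Smn1deltaSKM group held 12 fibers of 3 mice in which Smn1, the survival motor neuron gene, is deleted in skeletal muscle. These mice carry homozygous Smn F7 alleles, in which exon 7 lies between loxP sequences. Their Cre is under the HSA (skeletal actin) promoter, which is active in the fiber itself. The Smn1deltaSKM+AFS group held 7 fibers of 2 mice of that same genotype that had received amniotic fluid stem (AFS) cells, sorted for GFP and c-kit, through the tail vein. Groups, fibers and mice are those of the labels, and the text of the study counts arrays and treated mice differently. The labels give an age of 3 months for all 3 groups, whereas the methods place the injection at that age and the isolation of fibers a month after it. Each mouse gave 4 fibers, apart from the Smn1deltaSKM+AFS mouse 2, which gave 3. Every value below is a level on the log2 scale relative to the 75th percentile of its array, so that 1 unit is a doubling, and groups were compared over mice and not over fibers.

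Fast fiber genes had the highest summed signal of the 10 marker lists checked. Myh4, Acta1, Tnnt3 and Atp2a1, which fast fibers express, were well above background on all 27 arrays. The other fast fiber markers Myh1 and Ckm were above it on 26 arrays and Myh2 on 4. Of the slow fiber markers, Myh7 was above it on 26 arrays, Tnni1 and Atp2a2 on 24, Tnnt1 on 22 and Myl2 on 17. Of the 6 satellite cell markers, Cdh15 was above it on 26 arrays, Myf5 on 25, Vcam1 on 9, Pax7 on 3, and Calcr and Chrdl2 on 0. The Myf5 readings all came from spot 8 of its 10 spots and, as given below, were not sound enough to use. Markers of other cells were read as well, with the immune markers Ptprc, Csf1r and Itgam, the endothelial markers Kdr and Vwf, the smooth muscle marker Myh11 and the fibroblast marker Col1a2 above background on all 27 arrays. One Smn1 probe differed by -1.68 between Smn1deltaSKM and WT (limma, adjusted p = 0.0201) and by -1.61 between Smn1deltaSKM+AFS and WT (adjusted p = 0.0499), while the other Smn1 probe differed by 0.19 in the former (adjusted p = 0.715). An array gave values for 23183 to 37595 probes (median 27431), and no 2 arrays were identical. By group the median was 25156 in WT, 31433.5 in Smn1deltaSKM and 27431 in Smn1deltaSKM+AFS. The 75th percentile of the signal, to which every value is scaled, had medians of 106, 173 and 129 in that order. The 8 WT fibers shared 1 slide and a scan day that no other group used, so that slide and genotype cannot be told apart in any comparison with WT.

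Transcripts of these factors were read in most fibers. Of the members, 9 of the 11 member probes (81.8%) were well above background on all 27 arrays, against 13134 of 55681 probes on the array (23.6%). Myf5 was read on 25 arrays, by spot 8 of its 10 spots only, and Pax7 on 3. The share of readings above background was 90.9% in WT (80 of 88), 90.9% in Smn1deltaSKM (120 of 132) and 92.2% in Smn1deltaSKM+AFS (71 of 77). These shares include the Myf5 readings of spot 8. No member spot was saturated or flagged as uneven.

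Between Smn1deltaSKM and WT fibers, the transcripts that fell were those of MEF2 factors. Both Mef2d probes and a Mef2a probe were lower in Smn1deltaSKM, by 2.42-fold to 3.73-fold. No myogenic regulatory factor passed the test in either direction, although Myod1 averaged 2.74-fold higher. In all, 3 of 10 member probes were called, each of them lower. Of all tested probes 21.5% were called and 14.1% were called lower in this comparison, so that 3 of 10 lies near the general rate. It is a statement about the Mef2d probes and a Mef2a probe, not about the family. The other, brighter Mef2a probe was not called (-0.43, limma, adjusted p = 0.271).

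**Figure D1:**
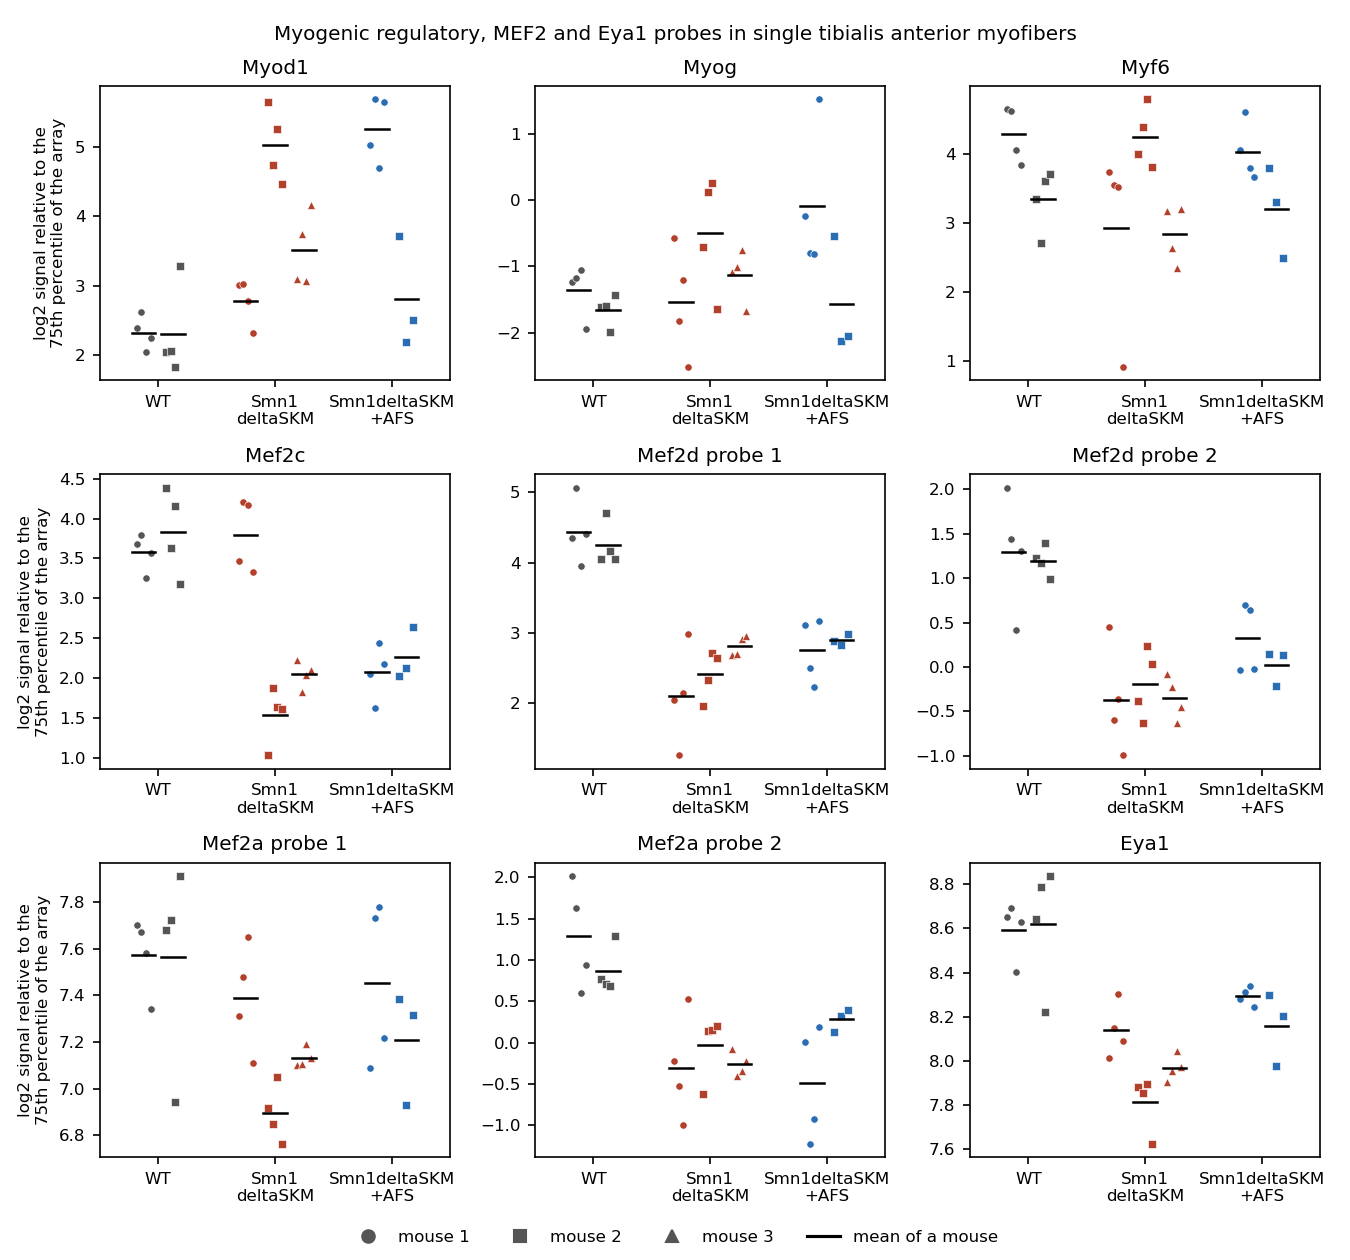
Levels of 9 member probes, each panel with its own axis in log2 units relative to the 75th percentile of the array. A point is 1 myofiber, the symbol gives its mouse within the group, and a bar is the mean of a mouse. Mef2d probe 1 lay between 3.95 and 5.06 in WT and between 1.26 and 2.98 in Smn1deltaSKM with no overlap, whereas Myod1 and Mef2c split within Smn1deltaSKM by mouse.

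Mef2d, which encodes the MEF2 factor known for a muscle-restricted splice form in mature fibers, is read by a pair of probes. Probe 1 starts at base 1870 of the transcript. Its 60 bases are spread over 347 bases of genome (mm9, chr3:87972214-87972560, plus strand), so it crosses a splice junction and reads spliced RNA. Probe 2 starts at base 2340 (mm9, chr3:87972971-87973030, plus strand). The junction probe is printed because the clearest difference of the family rests on it.
Mef2d probe 1: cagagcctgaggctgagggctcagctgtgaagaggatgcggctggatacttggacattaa

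In WT, Mef2d probe 1 read 4.35, 5.06, 3.95 and 4.41 in the fibers of mouse 1, and 4.05, 4.71, 4.17 and 4.06 in those of mouse 2. In Smn1deltaSKM it ran from 1.26 to 2.98 with a median of 2.67 over 12 fibers. In Smn1deltaSKM+AFS it ran from 2.24 to 3.18 with a median of 2.88 over 7 fibers. Every WT fiber was therefore above every fiber of either Smn1-deleted group. The mouse means were 4.35 ± 0.14 in WT (SD, n = 2 mice) and 2.45 ± 0.35 in Smn1deltaSKM (SD, n = 3 mice), a fall of 3.73-fold on the difference of -1.90 ± 0.29 (SE, 95% interval -2.57 to -1.22, limma with Benjamini-Hochberg adjustment over 22169 probes, adjusted p = 0.00935).

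Mef2d probe 2 was lower as well. It ran from 0.41 to 2.02 in WT with a median of 1.26, and from -1.0 to 0.45 in Smn1deltaSKM with a median of -0.38. The ranges met at a single point, where the Smn1deltaSKM fiber 1 at 0.45 exceeded the WT fiber 3 at 0.41. The difference was -1.55 ± 0.26 (SE, limma, adjusted p = 0.0107), or 2.93-fold. Over the 27 fibers the probes of Mef2d gave r = 0.75 and rho = 0.59, with the differences between groups included in that figure.

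Mef2a, a MEF2 factor expressed in most tissues and abundant in muscle, is read by probes that behaved differently from each other. Mef2a probe 2 (mm9, chr7:74378751-74378810, minus strand, from base 2776 of the transcript) ran from 0.60 to 2.01 in WT with a median of 0.85. In Smn1deltaSKM it ran from -1.0 to 0.53 with a median of -0.22. The fibers of these groups did not overlap, and the difference was -1.28 ± 0.32 (SE, limma, adjusted p = 0.0284), or 2.42-fold. Its call was lost when the arrays were centred on the median of the probes with values on all arrays (adjusted p = 0.0587) and when slide was a random block (limma, adjusted p = 0.0682). Mef2a probe 1 read 7.57 in WT and 7.14 in Smn1deltaSKM as means of mice, a difference of -0.43 (adjusted p = 0.271). Across the 27 fibers the Mef2a probes correlated with r = 0.18 and rho = 0.16.

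Of the 10 member probes tested, Mef2a probe 2 and Mef2d probe 1 were the 2 whose WT and Smn1deltaSKM fibers did not overlap. Among all tested probes 10.8% were so separated. By limma, 4 of the 10 member probes had an unadjusted p under 0.05, near the 39% of all tested probes that did. Over the 10 member probes the median difference was -0.56, against -0.14 over all tested probes. The scaling sets that zero: the median over all probes was -0.14 with the 75th percentile and 0.09 when the arrays were centred on the median of the probes with values on all arrays. Relative to the median of all probes, the difference was -1.76 for Mef2d probe 1, -1.41 for Mef2d probe 2 and -1.14 for Mef2a probe 2.

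Simple repeats set the Eya1 probe and the brighter Mef2a probe apart from the rest. The Eya1 probe ends in a long run of alternating G and T, a repeat that many transcripts share, and the longest such run of Mef2a probe 1 is 10 bases. The last 30 bases of the Eya1 probe are printed to show the run, in capitals.
Eya1: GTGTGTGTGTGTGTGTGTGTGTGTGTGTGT

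The Eya1 probe (mm9, chr1:14159982-14160041, minus strand, from base 3327 of the transcript) holds an unbroken run of 34 bases. In WT it ran from 8.22 to 8.84 with a median of 8.65, in Smn1deltaSKM from 7.62 to 8.30 with a median of 7.96, and in Smn1deltaSKM+AFS from 7.98 to 8.34 with a median of 8.28. The WT range overlapped both others at its lowest fiber. Eya1 differed by -0.63 between Smn1deltaSKM and WT (95% interval -1.22 to -0.05, limma, adjusted p = 0.105), which did not pass the test. Array-wide, 76 tested probes held a run of G and T, or of C and A, of at least 20 bases, and their median difference in the same comparison was -0.52, with quartiles of -0.65 and -0.30. Across the 27 fibers Eya1 followed the mean of 65 such probes of other genes with r = 0.94 and rho = 0.91, Mef2a probe 1 followed the mean of 66 of them with r = 0.72 and rho = 0.67, and Mef2a probe 2 with r = 0.51 and rho = 0.56. How much of these 2 bright signals came from the named transcripts was not tested.

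Mef2c, the MEF2 factor that in muscle supports the sarcomere and the slow and oxidative programme, differed between the mice of the Smn1deltaSKM group. Its probe (mm9, chr13:83772788-83775025, plus strand, from base 1104 of the transcript) spreads its 60 bases over 2238 bases of genome and so reads spliced RNA across an intron. It is printed because it reads across that junction, and because it had the highest share of variation between mice of the members.
Mef2c: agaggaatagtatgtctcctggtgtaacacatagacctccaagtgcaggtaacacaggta

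In WT, Mef2c read 3.69, 3.8, 3.25 and 3.57 in mouse 1 and 4.39, 3.63, 4.15 and 3.17 in mouse 2. In Smn1deltaSKM mouse 1 it read 3.46, 4.20, 4.16 and 3.33, within the WT range. In mouse 2 of that group it read 1.03, 1.88, 1.63 and 1.62, and in mouse 3 it read 2.23, 1.83, 2.03 and 2.11. Fibers of mouse 1 thus lay within the WT range while every fiber of the other Smn1deltaSKM mice lay below the lowest WT fiber. The highest and lowest mouse means of the group differed by 4.76-fold. The group difference was -1.25 ± 0.58 (SE, 95% interval -2.58 to 0.09, limma, adjusted p = 0.150). Without Smn1deltaSKM mouse 1 it was -1.91 and was called (adjusted p = 0.00282), and without the arrays of scan day 1, 3 of them from that mouse, it was -1.40 and was called (adjusted p = 0.0490).

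Myod1, the factor that commits myoblasts and that rises in denervated muscle, varied in the same way and in the opposite direction. It is read by 10 spots of 1 probe (mm9, chr7:53633956-53634015, plus strand). In WT it read 2.39, 2.62, 2.04 and 2.25 in mouse 1 and 2.05, 2.07, 1.83 and 3.29 in mouse 2. Smn1deltaSKM mouse 1 lay within that range, at 3.01, 3.03, 2.78 and 2.32. Mouse 2 of that group lay far above it, at 5.64, 4.73, 5.25 and 4.46, and mouse 3 read 3.1, 3.74, 3.06 and 4.17. The mouse means of Smn1deltaSKM spanned 4.71-fold, those of WT 1.01-fold. The difference of 1.46 ± 0.78 (SE, 95% interval -0.33 to 3.25) amounted to 2.74-fold and did not pass the test (limma, adjusted p = 0.202).

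Mouse and slide were largely shared in the Smn1deltaSKM group. Fibers 1 to 3 of mouse 1 were on slide 1 of scan day 1 and all fibers of mice 2 and 3 on slide 4 of scan day 2, so that for mouse 1 against the others mouse and slide cannot be told apart. The arrays of mouse 1 gave values for 23183 to 28015 probes, and those of mice 2 and 3 for 30934 to 37595. Mice 2 and 3, on the same slide, differed by 1.5 in Myod1. Fiber 4 of mouse 1 was on slide 3 and scan day 2. Its Mef2c level of 3.33 lay below the 3.46 to 4.20 of the other fibers of that mouse, by 0.61 on their mean, and above all fibers of mice 2 and 3. Against the mean of the other fibers of mouse 1, fiber 4 was higher by 1.17 in Mef2d probe 1 and by 1.11 in Mef2a probe 2. It differed from that same mean by -0.82 in Mef2d probe 2, -1.32 in Myog and -2.70 in Myf6. In Smn1deltaSKM+AFS, fiber 1 of mouse 1 shared a slide with the 3 fibers of mouse 2, where Myod1 read 5.02 against 2.19 to 3.72, a difference of 2.21 on the mean of the latter. The other fibers of mouse 1, on a pair of other slides, read 4.69 to 5.68. How much of these differences lay in the slide or in the signal of the arrays was not tested.

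**Figure D2:**
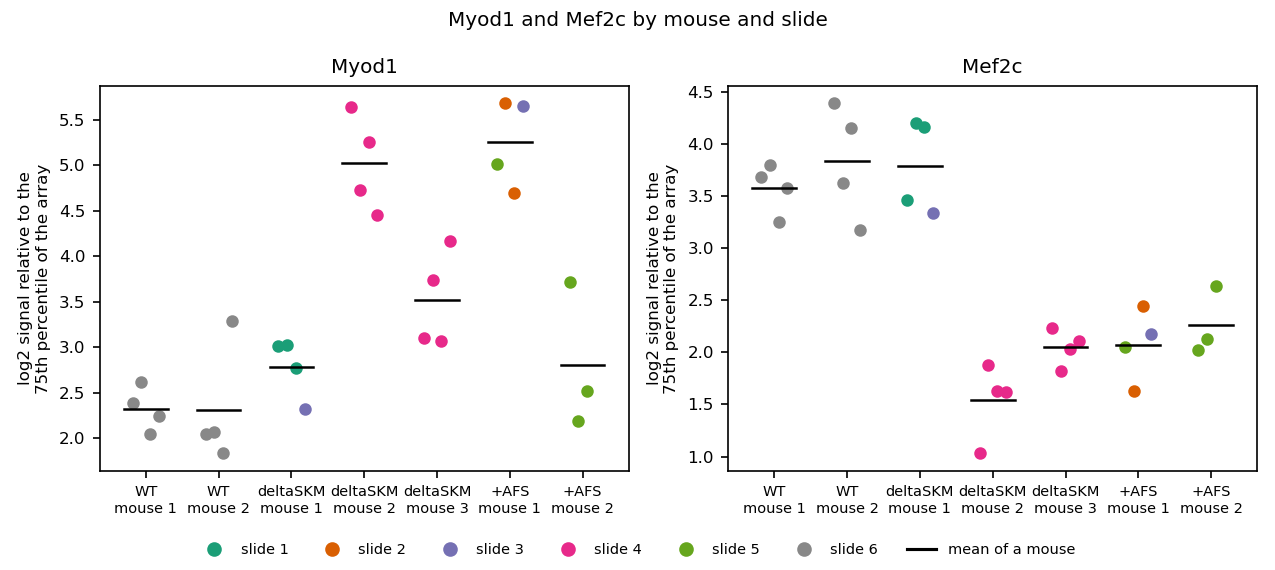
Levels of Myod1 and Mef2c (log2 relative to the 75th percentile of the array) in the fibers of each of the 7 mice, with colours for the 6 slides and bars for mouse means. The Smn1deltaSKM+AFS fiber on slide 5 from mouse 1 reads 5.02 for Myod1, beside 2.19 to 3.72 for mouse 2 on that slide, and fiber 4 of Smn1deltaSKM mouse 1, on slide 3, reads 3.33 for Mef2c, below the 3.46 to 4.20 of that mouse on slide 1.

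The share of the variation within groups that lay between mice put a number on this. It was 79.0% for Myod1 and 80.7% for Mef2c, at the 98.4 and 98.8 percentiles of all tested probes, for which the median was 34.4% and the quartiles 20.7% and 50.4%. For Myf6 it was 46.7%, for Myog 36.5%, for Eya1 35.2%, for Mef2a probe 1 30.8%, for Mef2a probe 2 25% and for Mef2d probe 1 24.1%. The lowest share was the 6.26% of Mef2d probe 2, whose mouse means spanned 1.14-fold in Smn1deltaSKM, while those of Mef2d probe 1 spanned 1.63-fold and those of Mef2a probe 2 spanned 1.21-fold. Myod1 and Mef2c ran against each other over the 27 fibers (r = -0.77, rho = -0.76), a description that includes differences between groups, mice and slides.

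**Figure D3:**
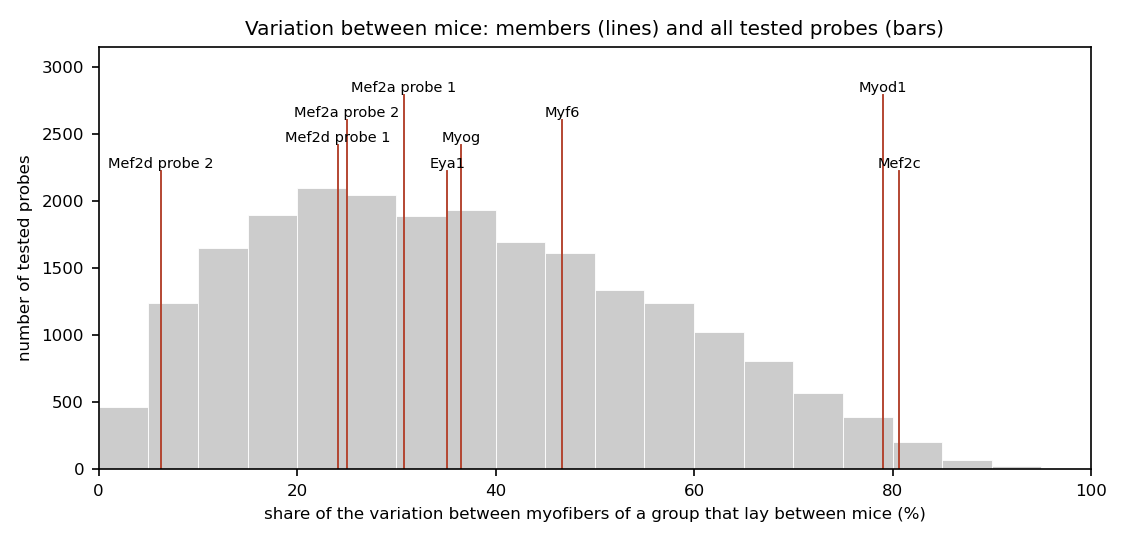
Share of the variation between myofibers of a group that lay between mice (horizontal axis, percent), as bars counting all 22169 tested probes and as red lines for the members. Myod1 at 79.0% and Mef2c at 80.7% stand at the right edge of the bars, and Mef2d probe 2 at 6.26% at the left.

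Myog, which carries myoblasts into differentiation and responds to loss of the nerve, was low in all groups and differed by less than its spread. Its 10 spots (mm9, chr1:136188874-136188933, plus strand) gave -1.99 to -1.06 in WT with a median of -1.52, and -2.52 to 0.25 in Smn1deltaSKM with a median of -1.05. In Smn1deltaSKM+AFS it read -0.24, -0.81, -0.81 and 1.51 in mouse 1 and -0.55, -2.12 and -2.05 in mouse 2. The ranges overlapped throughout, and the highest reading of all came from fiber 4 of the treated mouse 1. The difference between Smn1deltaSKM and WT was 0.46 (95% interval -0.63 to 1.55, limma, adjusted p = 0.504). Myog and Myod1 moved together over the 27 fibers with r = 0.71 and rho = 0.68.

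Myf6, the myogenic factor that mature fibers keep, was well above background in every fiber and did not separate the groups. Its probe (mm9, chr10:106930237-106930296, minus strand) ran from 2.72 to 4.66 in WT with a median of 3.78, from 0.91 to 4.80 in Smn1deltaSKM with a median of 3.54, and from 2.48 to 4.61 in Smn1deltaSKM+AFS with a median of 3.8. Fiber 4 of Smn1deltaSKM mouse 1, the single array of that mouse on another slide, read 0.91 beside 3.52 to 3.73 in its other fibers. The difference from WT was -0.48 in Smn1deltaSKM (95% interval -1.66 to 0.69, limma, adjusted p = 0.509).

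Myf5, the earliest of these factors and a marker of satellite cells and their progeny, was not measured well enough to compare. Its probe (mm9, chr10:106919974-106920033, minus strand, 51 of 60 bases A or T) is spotted 10 times on each array. Of 270 spot readings 25 were well above background, and all 25 came from spot 8. The other 9 spots gave 0 of 243 readings above background, with signals of 2.71 to 12.9, whereas spot 8 gave 19.5 to 163. The brightest spot next to spot 8 was one for Tnnt3, the fast troponin T, with a median signal of 52191, and the brightest neighbours of the other 9 spots had medians of 128 to 2174. Whether that neighbour added to the reading was not tested. On spot 8, Myf5 was 0.44 higher in Smn1deltaSKM than in WT (adjusted p = 0.293), and with the measured signal of all spots kept the difference was -0.68 (adjusted p = 0.148), so that not even a direction can be given.

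The other probes with 10 spots show the precision of the spot readings. A reading was used where its spot was both found and well above background. The spots of Myod1 had such readings in 266 of 270 cases. Those left out were all of spot 6, with signals of 519 to 1507, and so were not faint. Within an array the Myod1 spots differed by a median SD of 0.10, against an SD of 1.27 between fibers. The spots of Myog had such readings in 252 of 270 cases, with a median SD of 0.18 against 0.86 between fibers. The spots of an array share 1 amplified RNA, so their SD leaves out the error of amplification and handling, and the SD between fibers includes the differences between groups.

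**Figure D4:**
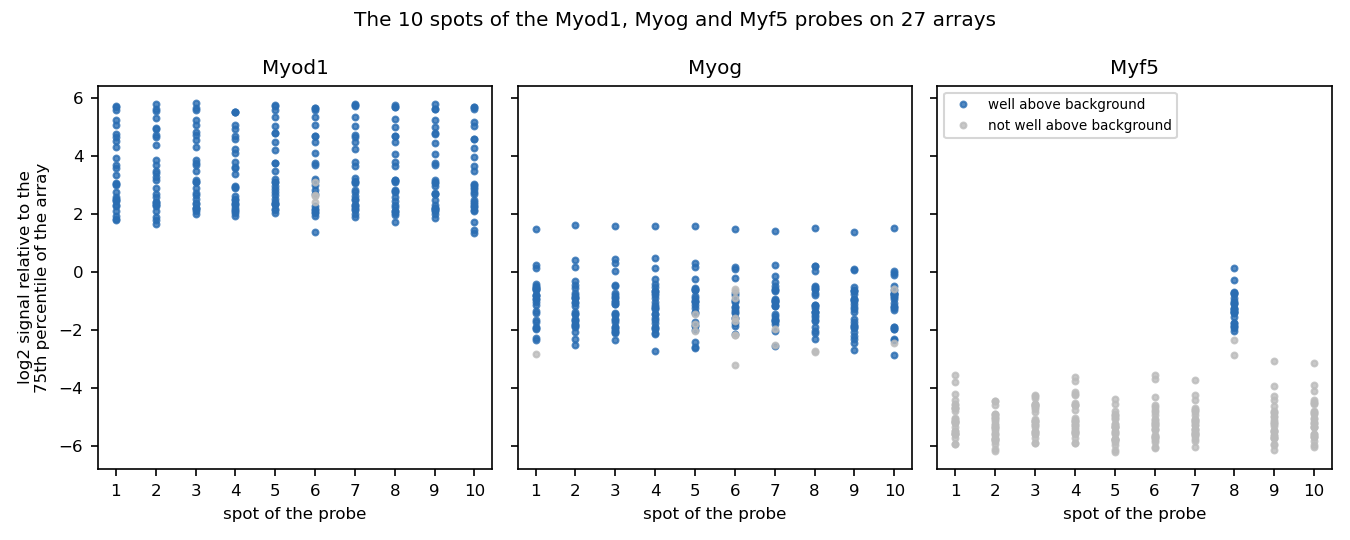
Readings of the 10 spots (horizontal axis) of the Myod1, Myog and Myf5 probes on 27 arrays, in log2 units relative to the 75th percentile of the array. Blue marks readings both found and well above background, and grey the rest. The spots of Myod1 and of Myog cover the same range as each other, while for Myf5 only spot 8 has readings above background, 25 of 27.

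Pax7, the defining factor of satellite cells, was above background in 3 of 27 fibers, 1 of each group. It read -2.59 in WT fiber 8, -1.84 in Smn1deltaSKM fiber 5 and -2.38 in Smn1deltaSKM+AFS fiber 2. The lowest level that counted as well above background was -3.86 to -2.27 depending on the array, and no comparison was made for Pax7. The summed signal of the 6 satellite cell markers, in multiples of the 75th percentile of the array, was 0.636 to 1.86 in WT, 0.339 to 1.39 in Smn1deltaSKM and 1.02 to 1.59 in Smn1deltaSKM+AFS. Beside these, the 7 fast fiber markers summed to 809 to 1944 over all arrays.

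Markers of fibroblasts differed between fibers far more. Their summed signal was 1.12 to 118 in WT with a median of 2.71, 1.83 to 35.3 in Smn1deltaSKM with a median of 11.8, and 2.27 to 23.5 in Smn1deltaSKM+AFS with a median of 15.6. Of the 7 markers, Col1a2 was above background on 27 arrays, Ly6a on 26, Col3a1 on 23, Dcn on 18, Col1a1 on 16, Lum on 7 and Pdgfra on 1. Slow fiber markers summed to 0.963 to 2.53 in WT, 2.71 to 19.6 in Smn1deltaSKM and 2.22 to 5.80 in Smn1deltaSKM+AFS. The fast fiber sum had a median of 1655 in WT, 1080 in Smn1deltaSKM and 1481 in Smn1deltaSKM+AFS. Fewer attached cells and less RNA per cell cannot be told apart in such sums. The 7 immune markers on the array summed to 198 to 314 in WT, 188 to 261 in Smn1deltaSKM and 230.5 to 313 in Smn1deltaSKM+AFS. The part of fiber type and of other cells in the differences of Mef2d and Mef2a was not tested.

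No member differed between treated and untreated Smn1deltaSKM mice beyond the spread between mice. No member probe was called between Smn1deltaSKM+AFS and Smn1deltaSKM by limma, and none had an unadjusted p under 0.05. Differences lay above 0 for 9 of the 10 member probes, which is not read as a shared rise. All tested probes together also had a median above 0, at 0.06. Of the 76 probes with long G and T or C and A runs, 0 were lower. The 9 include Myf5, which was not measured well enough, and Eya1 and both Mef2a probes, whose signs turned under some other processing. Of all tested probes 0% were called and 3.21% had an unadjusted p under 0.05, so that the comparison of 2 treated with 3 untreated mice called nothing anywhere. No member's fibers were separated between these groups, as 0.153% of all tested probes were. This comparison shares the Smn1deltaSKM mice with the one against WT, and its values are given beside that one without a test between them.

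The intervals give the range of differences that these mice allow. Mef2d probe 1 averaged 2.83 ± 0.10 in Smn1deltaSKM+AFS (SD, n = 2 mice), 0.38 above Smn1deltaSKM (95% interval -0.29 to 1.05), and Mef2d probe 2 averaged 0.48 above (-0.11 to 1.07). Mef2a probe 2 differed by 0.10 (-0.64 to 0.83), Mef2c by -0.29 (-1.63 to 1.04) and Myod1 by 0.26 (-1.53 to 2.05). The adjusted p was 0.9999 for every member. For Myod1 the treated mice themselves differed by 5.46-fold, at 5.02, 5.68, 4.69 and 5.65 in mouse 1 and 3.72, 2.19 and 2.51 in mouse 2. Both groups were scanned on days 1 and 2. On day 1 the 2 treated fibers differed from the 3 untreated ones, of 1 mouse each, by 2.25 in Myod1 and by -1.91 in Mef2c. Among the arrays of day 2 the fit gave an adjusted p of 0.928 or more for every member.

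**Figure D5:**
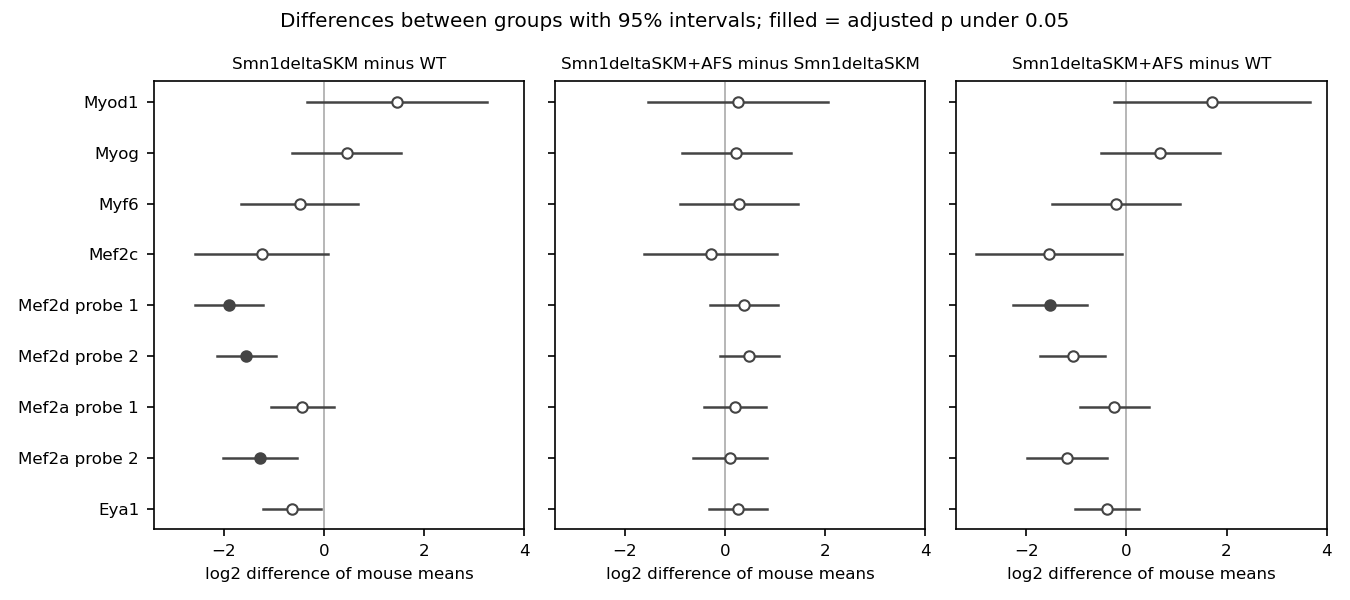
Differences between groups for 9 member probes, in log2 units of mouse means, with 95% intervals as lines. Filled points passed the test (adjusted p under 0.05): Mef2d probe 1 at -1.90, Mef2d probe 2 at -1.55 and Mef2a probe 2 at -1.28 against WT without treatment, no probe between treated and untreated mice, and Mef2d probe 1 at -1.52 against WT with treatment.

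Mef2d was lower than in WT in the treated fibers as well. Mef2d probe 1 was 2.87-fold lower in Smn1deltaSKM+AFS than in WT (-1.52 ± 0.32, SE, limma, adjusted p = 0.0356), and it was the 1 member probe called of 10. Among all tested probes 7.33% were called and 4.34% were called lower. Mef2d probe 2 at -1.07 (adjusted p = 0.0559), Mef2a probe 2 at -1.18 (adjusted p = 0.0737), Mef2c at -1.54 (adjusted p = 0.153), Myod1 at 1.72 (adjusted p = 0.221) and Myf5 at 0.99 (adjusted p = 0.0869) were not called. The fibers of Mef2a probe 2, Mef2c and Mef2d probe 1 did not overlap with WT, 3 of 10 member probes against 14.1% of all tested probes. The WT mice are shared with the comparison of untreated mice.

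Dependence on single mice limits both comparisons with WT. With WT mouse 1 or WT mouse 2 left out, limma called 0 of 22169 probes between Smn1deltaSKM and WT, while 3 member probes and 4635 or 5965 of all probes had an unadjusted p under 0.05; the lone WT mouse is then assumed to vary like the mice of the other groups. The difference of Mef2d probe 1 ran from -2.08 to -1.73 over the 7 mice left out in turn. Without Smn1deltaSKM mouse 1, 5 member probes were called against WT, Eya1 at -0.72 (adjusted p = 0.0330) and Mef2c beside the other 3. Without mouse 2 or mouse 3 of that group 2 were called, and Mef2a probe 2 was not among them (adjusted p = 0.0617 and 0.0738). The call of Mef2d probe 1 against WT after treatment was lost without any 1 of the mice except Smn1deltaSKM mouse 1 (adjusted p of 0.0517 to 0.250), with median centring (adjusted p = 0.0510) and with quantile normalization (adjusted p = 0.0682).

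Among the partners and inhibitors of the myogenic bHLH factors 1 gene passed the test. Of 13 listed genes, 6 were tested and Tcf4, which encodes an E protein, was the 1 that fell in Smn1deltaSKM (-1.71, 3.27-fold, limma, adjusted p = 0.0110). It also fell in Smn1deltaSKM+AFS against WT (-1.47, adjusted p = 0.0362). Counting each gene by its brightest probe, 13.5% of all genes were called lower and 7.81% higher between Smn1deltaSKM and WT, and 4.01% lower and 3.29% higher between Smn1deltaSKM+AFS and WT.

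Genes that act on MEF2 proteins were lower in Smn1deltaSKM where they passed the test. Of 21 tested cofactors and upstream kinases, phosphatases and deacetylases, 10 were called lower and 0 higher, with a median difference of -1.16 against -0.11 over all genes. They included Camk2a, a calcium/calmodulin-dependent kinase, at -2.40 (5.28-fold, adjusted p = 0.00680), Ppp3r1, the regulatory subunit of calcineurin, at -2.36 (adjusted p = 0.00693), Mapk14, the p38 kinase that phosphorylates MEF2 factors, at -2.25 (adjusted p = 0.0204), and Hdac4, the class IIa deacetylase that represses them, at -1.93 (adjusted p = 0.00743). Both activators and a repressor of MEF2 thus fell. Against WT, the treated mice had 4 of 21 called lower: Ppp3r1 at -2.60, Camk2a at -2.06, Hdac4 at -1.48 and Mamstr, a MEF2 coactivator, at -1.33. Rcan1, a calcineurin inhibitor, was higher there by 10.9-fold (3.45, adjusted p = 0.0458).

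Of 27 tested muscle genes known as targets of these factors, 10 were called lower in Smn1deltaSKM and 0 higher, against 13.5% and 7.81% of all genes. Mylpf, the fast regulatory myosin light chain, was at -1.99 (adjusted p = 0.0159), Mylk2, the skeletal myosin light chain kinase, at -1.86 (adjusted p = 0.0462), Ckm, muscle creatine kinase, at -1.76 (adjusted p = 0.0216) and Pygm, glycogen phosphorylase, at -1.64 (adjusted p = 0.0138). The median of the list was -0.86 against -0.11 over all genes. In Smn1deltaSKM+AFS against WT 0 were called lower by limma, and Mb, myoglobin, was called higher by 5.03-fold (2.33, adjusted p = 0.0266). There 10 of the 27 had an unadjusted p under 0.05 in either direction, beside 29.4% of all tested probes. That these counts differ between the comparisons was not tested, and no gene of the lists described here was called between treated and untreated mice by limma. At an unadjusted p under 0.05 there were 6 of these 27 genes in that comparison, 2 of 13 denervation and regeneration genes and 0 of the bHLH partners, the MEF2 cofactors and the satellite cell genes. Of all tested probes 3.21% had such a p by limma in that comparison and 0% were called.

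Of 13 tested genes of denervation and regeneration, Ankrd1, a stretch-responsive titin-binding protein, was higher by 9.79-fold in Smn1deltaSKM (3.29, adjusted p = 0.0140) and by 11.8-fold in Smn1deltaSKM+AFS (3.56, adjusted p = 0.0282). Chrne, the adult acetylcholine receptor subunit, and Myh8, the perinatal myosin, were called lower in Smn1deltaSKM (-1.50 and -1.20, adjusted p = 0.0249 and 0.0202). Thus 1 of the 13 was called higher and 2 lower in Smn1deltaSKM, beside 7.81% and 13.5% of all genes. These counts are not read as a result about denervation or regeneration. Of 9 tested satellite cell genes, 2 were called higher and 2 lower in Smn1deltaSKM, beside the same shares of all genes. Sdc4 (1.74) and Itgb1 (1.51) were higher and Hes1 (-1.96) and Itga7 (-1.51) lower. All of them are genes that other cells of muscle, the fiber included, also express. In Smn1deltaSKM+AFS, Sdc4 at 2.23 was the 1 satellite cell gene called against WT, where 3.29% of all genes were called higher.

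Every probe with values on all 27 arrays can be ranked by how its level followed a member over the fibers, among 7869 named probes of other genes. Mustn1 was the most alike to Myod1 (r = 0.91, rho = 0.93), followed by Ehd4 (r = 0.89) and Pvr (r = 0.88). Ehd4 was also among the 3 most alike to Myog (r = 0.69), after Hhatl (r = 0.74) and Ccrn4l (r = 0.73). Myf6 was followed most closely by Arf6 (r = 0.73), Tgfb2 (r = 0.70) and 2900026A02Rik (r = 0.68).

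Among the ranked probes of MEF2 factors, the closest likeness was to Mef2d probe 1. Calcoco1 and Slain2 (both r = 0.97) and Tstd2 (r = 0.96) followed Mef2d probe 1, and Rai12, Lrrc59 and Zfp14 (each r = 0.92) followed Mef2c. The 3 most alike to Eya1 (Fam54a, Trim25 and Wdr89, each r = 0.97) and to Mef2a probe 1 (Sema6d at r = 0.91, Atxn7 and Tnfrsf9 at r = 0.90) were read by probes that hold G and T or C and A runs of 20 to 31 bases, whereas for the other members the run was at most 5 bases. The fibers of a mouse, slide and group are shared by all such pairs. Among members, Mef2a probe 2 followed Mef2d probe 1 with r = 0.83 and Mef2a probe 1 followed Eya1 with r = 0.84.

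Of the 9 genes, 6 had an entry in the RefSeq promoter table (GRCm38.p6), with 8 promoters in all. In the 250 bases before each start, the E-box letters CANNTG were found in 3 of the 8 and the MEF2-type letters CTANNNNTA, on either strand, in 3 of the 8, against 66.2% and 19% of 32851 promoters. The Myog promoter and 1 of the 3 Mef2c promoters held both, as 13% of all promoters did. The last 150 bases of the Myog promoter before the start (GRCm38.p6, chr1:134289854-134290003, plus strand) are printed because they carry, in capitals, 2 E-boxes and 1 MEF2-type element, the letters through which members of both families are known to act on another member. A match gives letters only, and Myog itself did not differ between the groups beyond its spread.
Myog: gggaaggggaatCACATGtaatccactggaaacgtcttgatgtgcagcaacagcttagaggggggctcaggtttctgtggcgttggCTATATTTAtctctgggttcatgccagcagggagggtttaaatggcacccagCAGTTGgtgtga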

How the data were processed

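RNA of each myofiber was amplified in 18 cycles and hybridized in 1 colour (Cy3). The intensity used here is the per-array processed signal of Agilent Feature Extraction (version 10.7.3.1, per the submitters' processing notes), background-subtracted and not scaled between arrays. For its own analysis the study states that data were normalized within and between arrays. Probe positions are those of the array design (mm9).

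Here log2 intensities were expressed relative to each array's 75th percentile. Readings not found, not well above background or uneven were left out, and repeated spots were combined by their mean. A probe was tested if at least 75% of the 27 arrays gave it a value. Fibers of a mouse were averaged, and mouse means of the 3 groups were compared in 1 fit with limma 3.58.1 (R 4.3.3). A call is an adjusted p under 0.05 (Benjamini-Hochberg over all probes). An exact permutation test of 2 against 3 mice cannot go below p = 0.1. The number of arrays limits the precision. The scripts were tested on simulated data.

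Every member probe is described. Lists name up to 4 called genes per direction, each by its brightest probe, and the 3 probes most like a member by Pearson's r. A list of other transcription factors is not reported here. Members, lists and tests were chosen with earlier results of these data known. Alternatives covered scaling, background, filters, replicates, blocks, threshold and mice left out, and the authors' value table was taken to log2 for one of them.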

Additional observations from a re-analysis of the deposited data

Results flagged for a closer look

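Of 20 groups of 7 or 8 fibers, 1 held a fiber set apart from the rest. Fiber 6 of Smn1deltaSKM+AFS had the lowest Eya1 level of its group, 7.98, with the next at 8.20, a gap of 0.621 of the range of the 7 fibers against a critical value of 0.568. Chance alone gives such a gap in about 1 in 20 groups. The 12 fibers of Smn1deltaSKM were too many for this test.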

How the results depend on the processing

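Between Smn1deltaSKM and WT, 3 member probes were called. The count was 7 with myofibers as replicates, 6 with the mouse as a random block, 1 with the brightest probe of each gene (which for Mef2a is probe 1), and 0 to 5 with a mouse left out. Between Smn1deltaSKM+AFS and WT it was 1, and 0 with median centring, with quantile normalization, with the value table and without a filter, 2 with values on all arrays, 7 with myofibers as replicates, 6 with the mouse block, 4 at an adjusted p under 0.1, 0 to 5 with a mouse left out, and 3 without scan day 1, an alternative chosen after seeing the data. Between Smn1deltaSKM+AFS and Smn1deltaSKM it was 0 under every alternative.

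Signs that turned belonged to differences that were not called: Myog (-0.0187, slide block), Myf5 (-0.68, measured signal kept or no filter) between Smn1deltaSKM and WT. Between treated and untreated mice they were Mef2a probe 2 (-0.11, slide block), Mef2a probe 1 (-0.11, -0.13 and -0.12) and Eya1 (-0.0646, -0.0423 and -0.0673) under quantile normalization, normexp and the value table. Against WT after treatment they were Myf5 (-0.45, signal kept or no filter) and Myf6 (0.14, slide block). With a mouse left out, treated minus untreated ran from -0.97 to 1.48 for Myod1, -0.52 to 0.97 for Myog, -0.14 to 0.73 for Myf6, -0.29 to 0.48 for Mef2a probe 2 and -0.75 to 0.37 for Mef2c, and treated minus WT from -0.0648 to 1.42 for Myog and -0.68 to 0.27 for Myf6. The causes were not tested.

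Over all probes the 4757 calls between Smn1deltaSKM and WT became 11996 with myofibers as replicates, 7722 with the mouse block, 2319 with the slide block, 3144 with values on all arrays, 7562 at an adjusted p under 0.1 and 0 to 9711 with a mouse left out (0 without either WT mouse, 9711 without Smn1deltaSKM mouse 1). The 1625 calls between Smn1deltaSKM+AFS and WT became 787 with quantile normalization, 963 with the value table, 1054 with values on all arrays, 2458 with the measured signal kept, 2759 without a filter, 9155 with myofibers as replicates, 4448 with the mouse block, 3900 at an adjusted p under 0.1, 2463 without scan day 1 and 0 to 6501 with a mouse left out (0 without either WT mouse or Smn1deltaSKM+AFS mouse 1, 6501 without Smn1deltaSKM mouse 1). The 0 calls between treated and untreated mice became 26 with myofibers as replicates.

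Mouse numbers are names within a group: deviations of same-numbered mice correlated at 0.15, 0.05, 0.30, 0.19, -0.05 and -0.05. With the replicate block, 2 member probes were called between Smn1deltaSKM and WT (Mef2a probe 2 at -1.25, adjusted p = 0.0672), 1 against WT after treatment and 0 between treated and untreated, and 3086 of all probes in the first. Signal near background limits Myf5 and Pax7.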
